A study of Mus musculus with 23 samples.

Results

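The nuclear genes of the mitochondrial respiratory chain and of ATP synthase were followed in osteocyte-rich chips of long bone from mice that lacked FNDC5, the membrane precursor of the hormone irisin, or carried it. Members were every gene whose symbol begins with *Nduf* followed by a, b, c, s or v, with *Cox4* to *Cox8*, with *Uqcr* or with *Atp5*, together with *Sdha* to *Sdhd*, *Cyc1* and *Cycs*. This gave 93 of the 21402 genes measured. They comprised 35 genes of complex I, 4 of complex II, 9 of complex III, 19 of complex IV, 15 of ATP synthase and *Cycs*, with *Ndufa4* and *Ndufa4l2* counted in complex IV. The symbols also brought in genes that are no subunits, namely 7 assembly factors of complex I (*Ndufaf1* to *Ndufaf7*), *Cox7a2l*, which helps join complexes into supercomplexes, and the pair *Atp5s* and *Atp5sl*. The subunits encoded by mitochondrial DNA were not analysed here.

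The libraries came from 23 mice of the C57BL/6 strain aged 5 months, 1 library per mouse. FNDC5 knockout (KO) and wild type (WT) mice of each sex ate a low-calcium diet (0.01% calcium) or a control diet (0.6% calcium) for 2 weeks. The groups were KO females on low calcium (2 mice) and on the control diet (3 mice), and 3 mice each of WT females on low calcium, WT females on the control diet, KO males on low calcium, KO males on the control diet, WT males on low calcium and WT males on the control diet. FNDC5 was deleted throughout the body and not in bone alone. The bone was shaft of tibia and femur, cleared of marrow by flushing and of surface cells by enzyme digestion before RNA was taken.

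Electrons from food pass from NADH into complex I, or from succinate into complex II. They move on through complex III, the small carrier cytochrome c and complex IV to oxygen. Complexes I, III and IV pump protons across the inner mitochondrial membrane, and ATP synthase uses their return to make ATP. Bone-resorbing osteoclasts are rich in mitochondria, while osteocytes sit in a mineral matrix with limited oxygen. Several complex IV subunits have a form used in most tissues and another used mainly in striated muscle, lung or germ cells.

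Reads recovered from the normalized counts ran from 7217601 to 33352631 per library, with a median of 20907756. *Fndc5* stood at 0 to 17.8 normalized counts in all mice, and since the deletion removes part of the gene, counts over the whole gene do not check the labels. All 8 osteocyte markers (*Dmp1*, *Sost*, *Mepe*, *Phex*, *Fgf23*, *Pdpn*, *Irx5* and *Ptprz1*) were detected in every group, with summed counts of 8721 to 72255 per mouse. The 5 neutrophil markers summed to 186900 to 493720 counts per mouse, above the osteocyte sum in every mouse. The 4 red cell markers summed to 57068 to 141570. The chips thus held much RNA of blood cell lineages. Muscle markers summed to 491 to 673 in WT males on the control diet and to 99.0 to 193 in the other groups, and liver markers to 1114 to 13554 in WT males on the control diet and to 0.896 to 172 in the others. In such bulk samples fewer cells of a type and less RNA per cell cannot be told apart.

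Short motifs bound by known regulators of nuclear mitochondrial genes were searched in RefSeq promoter windows (GRCm38.p6, from 250 bases before to 50 after the gene's start). Windows matched 73 of the 93 members. The core site of nuclear respiratory factor 1 (GCATGCGC, either strand) was present in 13 of them, or 17.8%, against 2.8% of all 27025 windows. The core of the ETS family (CCGGAAG, either strand), to which the regulator GABP belongs, was present in 16, or 21.9%, against 9.12% of all windows. The core of YY1 (AAGATGGC, either strand) was present in 8, or 11%, against 2.88%. At least 1 of these motifs was found in 32 members, or 43.8%, against 13.8% of all windows. A match describes letters only and not a bound site. Windows are shown for 4 members on which the results below turn, with matches in capitals. The windows of *Uqcrh*, which was higher on low calcium, and *Ndufs8*, which was lower, both hold an ETS core on the reverse strand. Those of *Cycs*, lower in females, and *Atp5k*, lower on low calcium unless the length trend was removed, hold the nuclear respiratory factor core, in *Atp5k* on both strands and overlapping itself, beside an ETS core on the reverse strand.
Uqcrh, chr4:116075021-116075320, minus strand: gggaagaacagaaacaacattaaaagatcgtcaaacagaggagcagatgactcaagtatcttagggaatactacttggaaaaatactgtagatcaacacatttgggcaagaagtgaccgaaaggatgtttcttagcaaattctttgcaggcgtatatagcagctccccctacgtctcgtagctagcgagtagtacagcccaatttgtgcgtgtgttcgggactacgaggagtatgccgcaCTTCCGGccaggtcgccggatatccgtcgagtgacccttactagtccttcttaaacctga
Ndufs8, chr19:3912725-3913024, minus strand: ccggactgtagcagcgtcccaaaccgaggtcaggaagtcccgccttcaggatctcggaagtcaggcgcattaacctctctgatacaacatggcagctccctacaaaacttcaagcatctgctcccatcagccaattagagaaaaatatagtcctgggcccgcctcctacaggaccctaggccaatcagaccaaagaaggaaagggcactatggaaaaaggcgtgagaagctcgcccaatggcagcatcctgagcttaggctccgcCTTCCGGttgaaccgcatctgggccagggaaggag
Cycs, chr6:50566520-50566819, minus strand: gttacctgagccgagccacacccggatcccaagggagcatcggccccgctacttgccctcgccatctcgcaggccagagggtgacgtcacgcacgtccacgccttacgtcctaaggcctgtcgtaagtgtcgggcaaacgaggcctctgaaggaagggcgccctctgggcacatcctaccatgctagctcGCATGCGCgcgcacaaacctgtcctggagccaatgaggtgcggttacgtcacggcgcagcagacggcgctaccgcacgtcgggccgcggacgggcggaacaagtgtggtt
Atp5k, chr5:108434350-108434649, minus strand: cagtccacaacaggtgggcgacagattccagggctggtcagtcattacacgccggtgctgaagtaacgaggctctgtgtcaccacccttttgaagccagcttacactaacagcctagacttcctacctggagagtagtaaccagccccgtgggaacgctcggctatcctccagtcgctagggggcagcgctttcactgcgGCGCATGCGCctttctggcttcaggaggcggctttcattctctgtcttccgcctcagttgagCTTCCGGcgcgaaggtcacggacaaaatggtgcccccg

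Levels between genes are compared here as normalized counts per kilobase of transcript (the median length of a gene's annotated coding transcripts), averaged over the 23 mice. Members of ATP synthase and of complex IV stood highest, with medians of 1204 and 1119 counts per kilobase. Complex III had a median of 908, complex II 823, complex I 553 and the complex I assembly factors 97.0 counts per kilobase. The highest single members were *Atp5b*, the catalytic beta subunit of ATP synthase, at 4074 ± 360 (SD, n = 23) and *Cox8a* of complex IV at 3970 ± 524 (SD, n = 23) counts per kilobase. These levels are from total RNA counted by gene and depend on the transcript length used.

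Of complex IV subunits with alternative forms, the form used in most tissues was by far the more abundant. *Cox6a1* averaged 1314 counts per kilobase against 77.8 for *Cox6a2*, the heart and skeletal muscle form. *Cox7a2* averaged 1227 against 10.6 for the muscle form *Cox7a1*, *Cox8a* 3970 against 2.60 for the muscle form *Cox8b*, and *Cox4i1* 1388 against 58.2 for *Cox4i2*, the lung form that is induced by low oxygen. *Ndufa4* averaged 1475 against 53.0 for *Ndufa4l2*, which is likewise induced by low oxygen. *Cox6b2*, known from testis, reached 428 counts per kilobase beside 2869 for its partner *Cox6b1*, while the other germ cell forms *Cox7b2* and *Cox8c* stood at 0.0744 and 0.0907. *Cox7b2*, *Cox8b* and *Cox8c* had too few counts to be tested, which left 90 members among 15638 genes tested.

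On the low-calcium diet, averaged over the 4 pairs of groups, fewer members were higher than lower, a split that turned round once a trend on transcript length was removed. Of the 90 members, 6 rose (among them *Ndufv1* and *Ndufs1* of complex I, *Sdha* of complex II, *Uqcrh* of complex III and *Atp5a1* of ATP synthase) and 20 fell, by limma at an adjusted p under 0.05. Over all genes tested, 16% rose and 15.4% fell, so rising members were fewer than that background and falling members somewhat more. The median log2 difference was −0.07 over the members and −0.01 over all genes, and 28 of the 90 members were above 0. The falls lay in complex I (9 of 35 members), complex IV (5 of 16), ATP synthase (3 of 15), complex II and complex III (1 each) and *Atp5sl*. Some of them rested mainly on KO females. *Uqcrb* of complex III had log2 differences of −0.72 in KO females, 0.03 in WT females, 0.07 in KO males and −0.11 in WT males. *Cox7b* had −0.84, −0.07, 0.09 and −0.09 in that order, and *Cox7a2* −0.74, −0.04, 0.12 and −0.19. Others, such as *Ndufb4* and *Atp5sl*, were below 0 in all 4 pairs. The 7 complex I assembly factors named *Ndufaf* had a median of 0.00 on the log2 scale. Limma called 0 of them, with 0 at an unadjusted p under 0.05. *Atp5sl*, which also helps assemble complex I and fell, was not counted with them.

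*Ndufs1*, an iron-sulfur subunit that carries electrons from the NADH site into complex I, lies on chromosome 1 (63143596 to 63176833, minus strand, GRCm38). It had 1923 and 2040 normalized counts in KO females on low calcium, against 1785, 1634 and 1648 on the control diet, and 1737, 1772 and 1716 in WT females on low calcium, against 1680, 1643 and 1529 on the control diet. In males it had 1908, 2100 and 1916 in KO mice on low calcium, against 1766, 1766 and 1868 on the control diet, and 1958, 1922 and 1981 in WT mice on low calcium, against 1746, 1757 and 1795 on the control diet. Every mouse on low calcium was above every control mouse of its own sex and genotype in all 4 pairs. Among the members *Ndufs1* alone showed this, as did 1.77% of all genes tested. The log2 difference was 0.15 ± 0.03 (SE, adjusted p = 0.000662).

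*Ndufv1*, the subunit that binds NADH, had a lowest, median and highest normalized count of 533, 642 and 781 in the 11 mice on low calcium, against 509, 560 and 614 in the 12 on the control diet. Its ranges overlapped, and it was higher in KO females, KO males and WT males but not in WT females, where 533, 578 and 557 counts on low calcium stood against 569.8, 614 and 563 on the control diet. The mean log2 difference was 0.19 ± 0.04 (SE, adjusted p = 0.00166). *Atp5a1*, the alpha subunit of ATP synthase, had 5984, 6634 and 7613 counts as lowest, median and highest in the 11 low-calcium mice, against 5247, 5940 and 6879 in the 12 control mice, a log2 difference of 0.16 ± 0.04 (SE, adjusted p = 0.00713). *Uqcrh*, the hinge protein of complex III, had 1136, 1211 and 1360.4 counts on low calcium, against 978, 1081 and 1296 on the control diet, a log2 difference of 0.18 ± 0.05 (SE, adjusted p = 0.00702). These overlapped in part, since WT male mouse 24 and KO female mouse 4, both on the control diet, had 1296 and 1282 counts. *Sdha*, the flavin subunit of complex II, had a smaller log2 difference of 0.10 ± 0.04 (SE, adjusted p = 0.036), and its call was lost in 14 of 31 alternatives, quantile normalization and removal of the length trend among them.

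**Figure D1:**
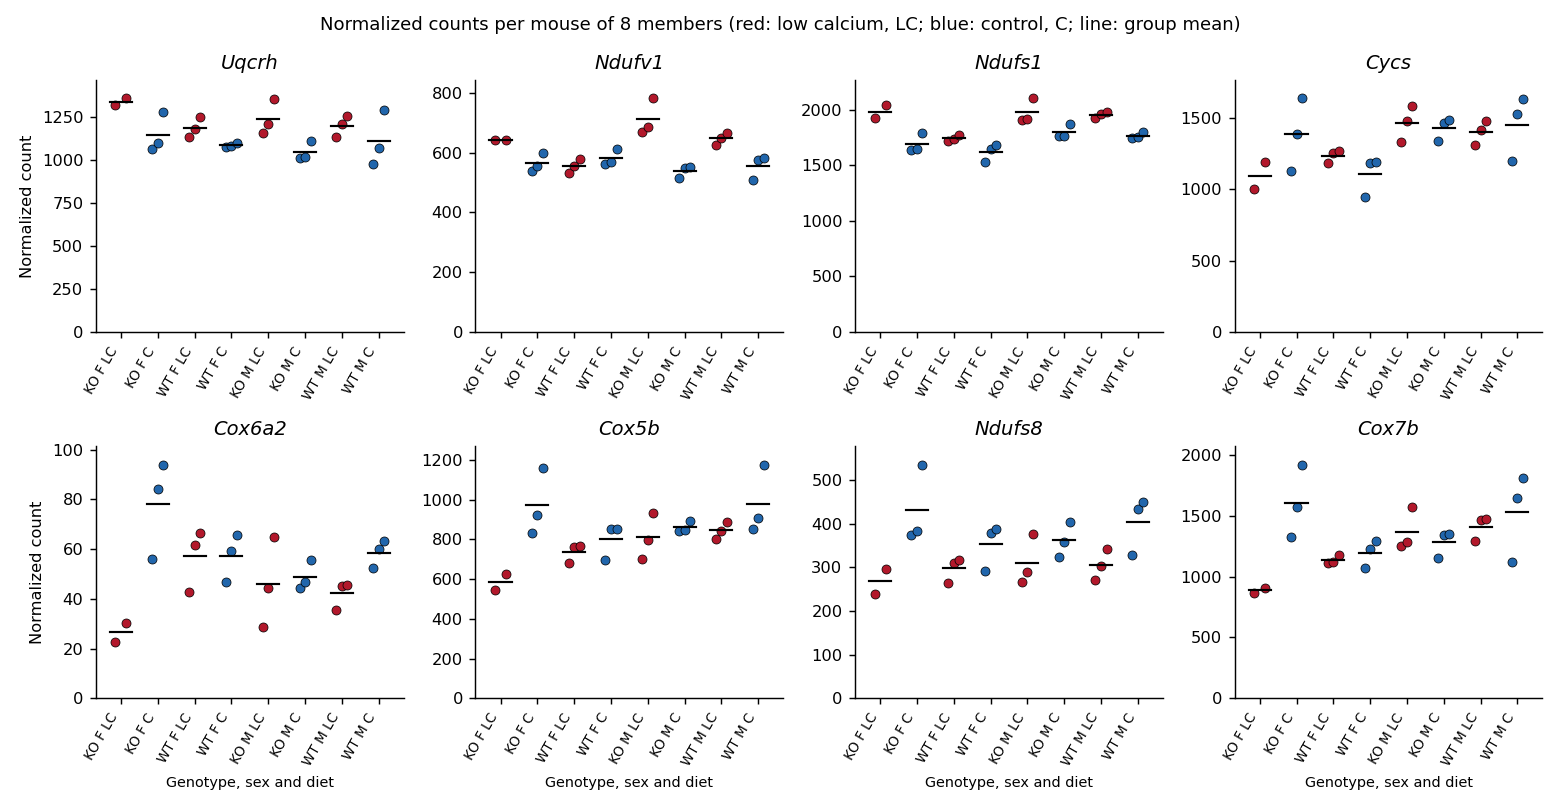
Normalized counts per mouse of 8 members by genotype, sex (F, M) and diet (LC, low calcium, red; C, control, blue); points are mice and lines group means. *Ndufs1* did not overlap between diets in any of the 4 pairs, and *Cox7b* had its lowest counts, 909.6 and 863, in the 2 KO females on low calcium.

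Among the members that fell, *Cox6a2* had the largest mean difference. Its lowest, median and highest counts were 22.8, 44.5 and 66.7 in the 11 mice on low calcium, against 44.2, 57.7 and 94.0 in the 12 on the control diet, and the log2 difference was −0.53 ± 0.14 (SE, adjusted p = 0.00624). By pair it was −1.50 in KO females, −0.02 in WT females, −0.15 in KO males and −0.47 in WT males. *Ndufs8*, an iron-sulfur subunit of complex I, had 239, 297 and 377 counts on low calcium, against 291, 381 and 535 on the control diet, a log2 difference of −0.38 ± 0.09 (SE, adjusted p = 0.00237). Both sets of ranges overlapped, and the lowest counts of both genes were in KO females on low calcium. *Cox5b*, a nuclear subunit of complex IV, had 546, 766 and 933 counts on low calcium, against 697, 852 and 1176 on the control diet, a log2 difference of −0.28 ± 0.07 (SE, adjusted p = 0.0033). *Ndufb4*, an accessory subunit of the membrane arm of complex I, had a log2 difference of −0.31 ± 0.08 (SE, adjusted p = 0.00616), and *Atp5k*, subunit e at the dimer interface of ATP synthase, one of −0.52 ± 0.12 (SE, adjusted p = 0.00292). With the length trend removed that of *Atp5k* was −0.17 (adjusted p = 0.206), and it was no longer called.

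*Atp5sl* was picked out after its values had been seen, because its diets did not overlap in any pair. Despite its symbol it encodes a factor that helps assemble the membrane arm of complex I. It had 299 and 298 counts in KO females on low calcium, against 317, 352 and 399 on the control diet, and 314, 254 and 209 in WT females on low calcium, against 342, 329.8 and 318 on the control diet. In males it had 281, 256 and 254 in KO mice on low calcium, against 287, 285 and 306 on the control diet, and 243, 269 and 235 in WT mice on low calcium, against 324, 298 and 297 on the control diet. Every low-calcium mouse was below every control mouse of its pair, as for 1.44% of all genes tested. The mean log2 difference was −0.27 ± 0.06 (SE, adjusted p = 0.0028). In WT females it was the only member called, at −0.37 ± 0.12 (SE, adjusted p = 0.0428), where 6.62% of all genes fell, and this call was lost in 8 of 15 alternatives, among them removal of the length trend and the omission of any of 5 single mice (WT females 1, 14 and 32 on the control diet and 17 and 18 on low calcium).

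Transcript length moved with these differences. Members are short, with a median of 810 bases against 2699 over the 14520 genes tested with a known length. Genes outside the set had a median log2 difference between diets of −0.17 at 700 bases or less, and of 0.05 above 4000 bases. The members went the same way, with a median of −0.13 for the 35 of 700 bases or less and of 0.09 for the 6 above 2500 and up to 4000 bases. With the trend on length removed from each library, an alternative chosen after seeing the data, the split turned round to 23 members higher and 5 lower, against 15.3% higher and 15.7% lower of 14520 genes, and the members' median was 0.05 on the log2 scale. *Ndufs1*, *Ndufv1*, *Atp5a1* and *Uqcrh* were called higher both ways, and *Cox6a2*, *Cox5b*, *Ndufs8*, *Ndufb4* and *Atp5sl* were called lower both ways. *Uqcrh*, with a transcript of 474 bases, then had a log2 difference of 0.43 (adjusted p = 3.14e-07). The direction of the set as a whole thus depended on this setting, and that of these 9 genes did not.

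In KO females 19 members fell and 2 rose on low calcium, against 3.91% and 3.49% of all genes, calls that no longer stood when either low-calcium mouse was left out. The median log2 difference was −0.32 over the members and −0.01 over all genes. Only 11 of the 90 members were above 0. Complex IV moved most, with 6 of 16 members lower and a median of −0.52, followed by ATP synthase (4 of 15 lower), complex I (7 of 35 lower, 1 higher), complex II (1 of 4) and complex III (1 of 9). Of 7 complex I assembly factors none fell and *Ndufaf7* rose.

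*Cox7b*, a complex IV subunit encoded on chromosome X, had 909.6 and 863 counts in KO females on low calcium, against 1921, 1569 and 1326 on the control diet, a log2 difference of −0.84 ± 0.16 (SE, adjusted p = 0.00698). *Cox6a2* had 30.3 and 22.8 counts on low calcium, against 84.0, 94.0 and 56.1 on the control diet, a log2 difference of −1.50 ± 0.30 (SE, adjusted p = 0.00807). *Atp5g1*, one of the genes for the rotating c ring of ATP synthase, had 337 and 343 counts on low calcium, against 698, 497 and 531 on the control diet, a log2 difference of −0.74 ± 0.15 (SE, adjusted p = 0.00847). In all 3 genes the 2 low-calcium mice lay below every other mouse of the study but, in *Cox6a2*, for KO male mouse 12 on low calcium with 28.7 counts. *Uqcrb*, a complex III subunit, had 929 and 972 counts on low calcium, against 1841, 1537 and 1361 on the control diet, and *Cox7a2*, the form of complex IV subunit VIIa used in most tissues, also fell, by 0.74 on the log2 scale (SE 0.17, adjusted p = 0.0159). The log2 difference of *Uqcrb* was −0.72 ± 0.14 (SE, adjusted p = 0.00678). *Ndufaf7*, which methylates a subunit during complex I assembly, went the other way, with 420 and 429 counts on low calcium, against 337, 336 and 292 on the control diet, and no overlap (log2 difference 0.40 ± 0.10 (SE), adjusted p = 0.0263).

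**Figure D2:**
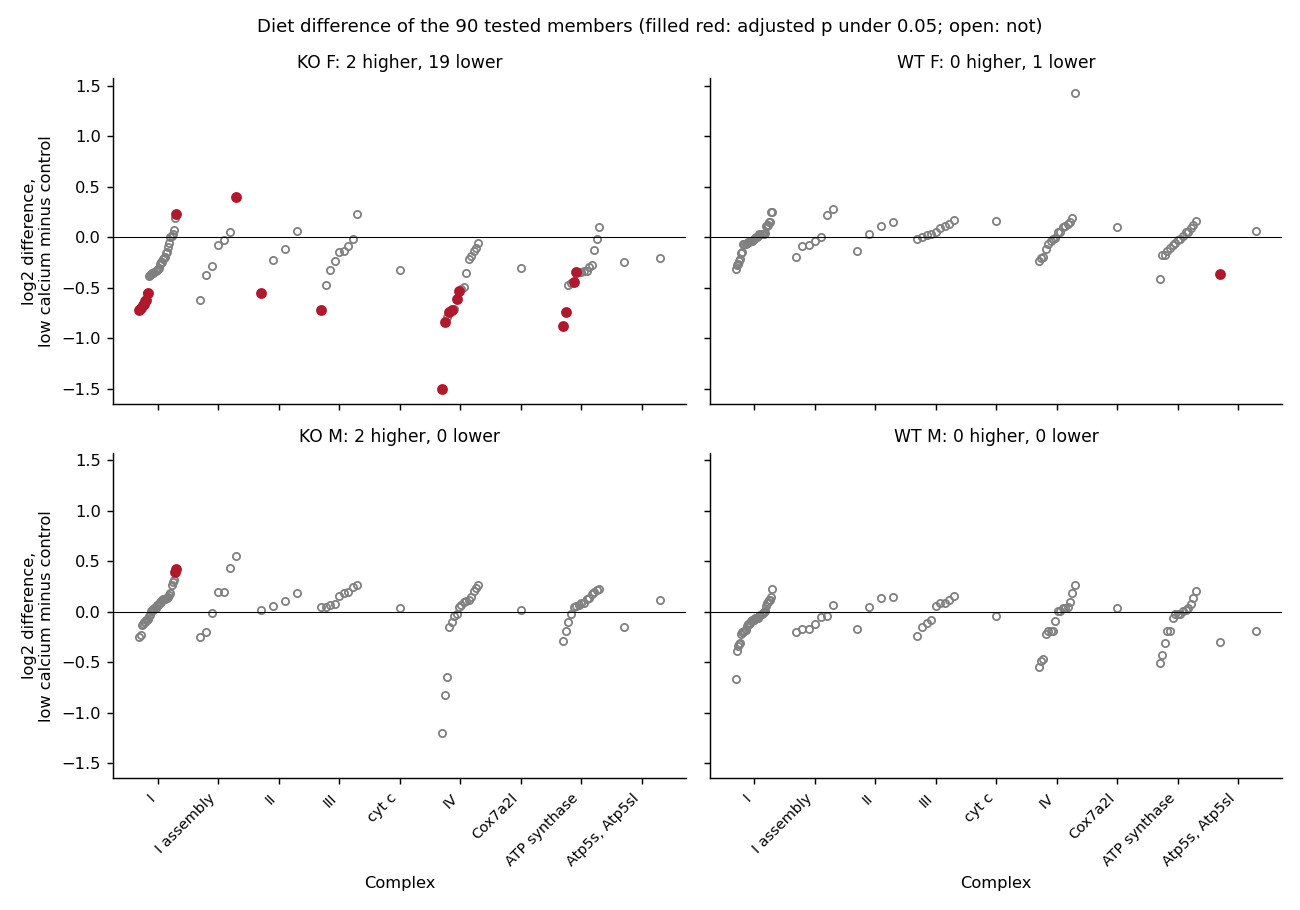
Log2 difference between low calcium and control in each pair of groups, 1 point per tested member, by complex, with called members filled. In KO females all 16 complex IV members lay below 0, with a median of −0.52.

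These calls rested on few mice. Leaving out either low-calcium KO female left 0 of the 21 calls, and leaving out KO female mouse 4 on the control diet, whose members averaged 0.34 above the mean of all mice on the log2 scale, left 4 lower and 0 higher, while without mouse 20 there were 28 lower. Fitting the 2 groups alone gave 4 lower. The median over the members stayed below 0 in all 13 alternatives, from −0.37 to −0.11.

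Short transcripts outside the set were lower as well in KO females. Genes of 700 bases or less had a median log2 difference of −0.40 outside the set and of −0.45 in the 35 members of that length, of which 11 fell. Above 1500 and up to 2500 bases the medians were −0.06 outside the set and −0.19 in the 15 members, of which 0 fell by limma and 1 rose. Removing the length trend left 6 members lower and 4 higher, against 3.25% and 2.59% of 14520 genes, with a median of −0.11 on the log2 scale. The 6 were *Atp5g1*, *Cox5b*, *Cox6a2*, *Cox7a2*, *Cox7b* and *Uqcrb*, all among the 19, and *Ndufaf7* stayed called as higher. Cytosolic ribosomal protein genes, also short, had 27 of 81 lower and a median of −0.30, and mitochondrial ribosomal protein genes 5 of 77 lower and a median of −0.27. Beyond this alternative the part of transcript length in the result was not tested.

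**Figure D3:**
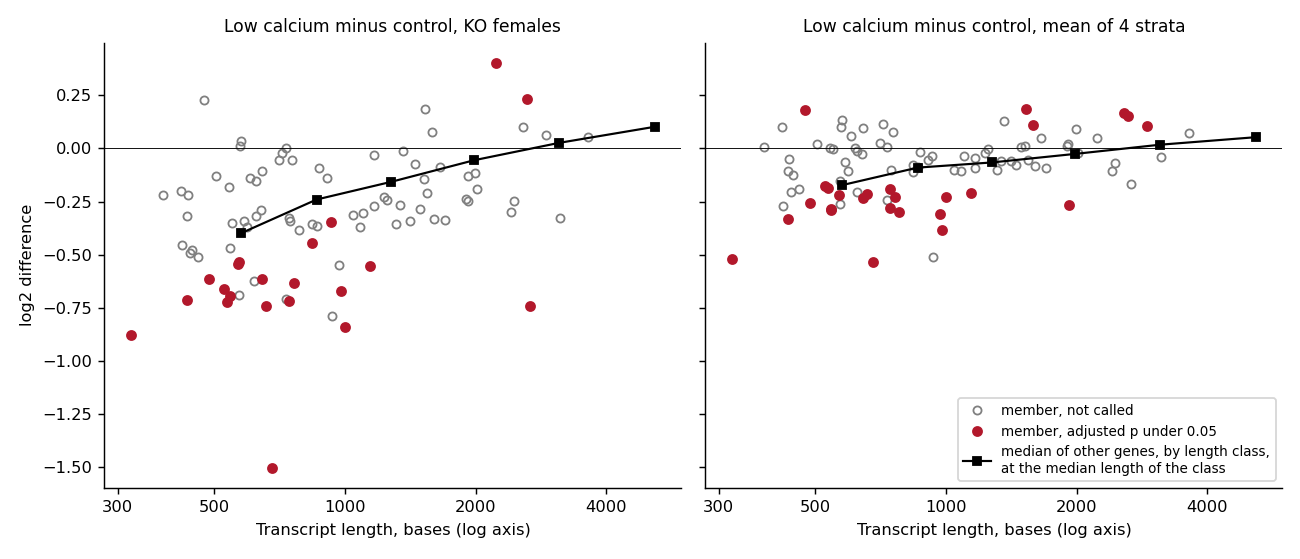
Log2 difference between low calcium and control against transcript length in bases (log axis), in KO females and over the mean of 4 pairs; circles are members, filled where called, and squares are medians of other genes by length class. In KO females the other genes run from a median of −0.40 at 700 bases or less to 0.10 above 4000 bases, and the members of 700 bases or less have a median of −0.45.

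Markers of other cells also differed between these KO females. Neutrophil markers summed to 186900 to 216110 counts on low calcium, against 215120 to 443530 on the control diet, with 2 of 5 called lower. Osteoclast markers summed to 16896 to 21916, against 4420 to 10603, with 2 of 6 called higher. Liver markers summed to 1.12 to 1.75, against 10.9 to 172, with *Alb* called lower (log2 difference −4.56, adjusted p = 0.0157). Red cell markers summed to 97776 to 101010, against 75031 to 85402, with no overlap and 0 of 4 called by limma, and 0 at an unadjusted p under 0.05. Skeletal muscle markers summed to 184 to 193, against 163 to 181, with 0 of 6 called by limma and 0 at an unadjusted p under 0.05, while the muscle form *Cox6a2* fell. *Siglech*, a surface lectin of plasmacytoid dendritic cells that was looked up after its values had been seen, had 278 and 291 counts on low calcium, against 769, 901 and 839 on the control diet (log2 difference −1.55 ± 0.19 (SE), adjusted p = 0.000774). Some of these shifts were also seen in WT females. Their neutrophil markers summed to 194310 to 233340 counts on low calcium, against 256080 to 318720 on the control diet. Osteoclast markers summed to 17298 to 31318, against 7087 to 10354. *Siglech* had 299, 348 and 319 counts, against 547, 623 and 484. Liver markers were higher there on low calcium and red cell markers lower, opposite to KO females. The part of these cells in the members' differences was not tested.

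In the other pairs 2 members were called in KO males, 1 in WT females and 0 in WT males by limma. With the length trend removed 9, 12 and 4 members were called, all higher. Of 14520 genes 2.34%, 10.4% and 2.3% were higher in that setting, so the members' share in WT females, 13.3%, was near background. Library quality weights gave 13 in WT males, and the share of all genes under them is not given here. In KO males *Ndufv1* rose, with 685, 781 and 668 counts on low calcium, against 514, 553 and 549.6 on the control diet (log2 difference 0.40 ± 0.08 (SE), adjusted p = 0.0068), as did *Ndufa1*, an X-linked accessory subunit of complex I, with 516, 590.3 and 539 counts, against 385, 391 and 451 (0.42 ± 0.11 (SE), adjusted p = 0.0362). Neither gene overlapped between diets, and these 2 rises stood against 1.87% of all genes higher, and 0 falls against 1.53% lower; the members' median was 0.07. In WT males limma called 0 members, against 4.88% of all genes, with 3 higher and 5 lower at an unadjusted p under 0.05, and edgeR and DESeq2 each called 1 lower; the median was −0.06. In WT females the median was 0.00, with 2 higher and 1 lower at an unadjusted p under 0.05 and 1 call, *Atp5sl*. The WT females on low calcium held the shallowest library of the study. Per the study's methods all libraries of that group mapped poorly, and bacterial contamination is given there as a possible reason. The part of mapping in this pair was not tested beyond leaving mice out. The same libraries enter the comparisons by sex in WT mice and by genotype in females on low calcium.

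Whether the diet change differed between genotypes or sexes was tested directly, and the answer depended on the tool. Between KO and WT females limma called 0 of 90 members, against 0.0128% of all genes, with 2 higher and 21 lower at an unadjusted p under 0.05; edgeR called 0, DESeq2 4 lower, and limma with library quality weights 18. Those weights were 10.3 for WT female mouse 1 on the control diet, against 0.915 and 0.795 for the other mice of its group. The share of all genes called under these weights is not given here. Without weights the members' median was −0.29, and the lowest adjusted p was 0.0749, for *Uqcrb* at −0.75 ± 0.18 (SE) on the log2 scale. Between KO females and KO males it called 0, against 0% of all genes, with 1 higher and 32 lower at an unadjusted p under 0.05; edgeR called 0, DESeq2 8 lower, and limma with library quality weights 10. Here the median was −0.36, and *Cox7b* differed by −0.93 ± 0.22 (SE, adjusted p = 0.15). Between KO and WT males it called 0 members, against 0%, with 2 higher at an unadjusted p under 0.05, and between WT females and WT males 0, against 0.173%, with 1 higher and 1 lower, and edgeR and DESeq2 called 0 in both.

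Loss of FNDC5 gave 0 called members in each of its comparisons by limma without weights or a correction for length. Library quality weights gave 7 in females on the control diet, 3 in females on low calcium and 2 in males on the control diet. The 7 came from a fit that weighted WT female mouse 1 on the control diet at 10.3. Removing the length trend gave 1 lower in females on low calcium, against 1.25% of 14520 genes lower. Over the 4 pairs 0 members were called, against 0.0576% of all genes, with 3 higher and 0 lower at an unadjusted p under 0.05, and the median log2 difference was 0.00. In females on the control diet 87 of 90 members were above 0, with a median of 0.22 and 27 higher and 0 lower at an unadjusted p under 0.05, yet 0 were called, as were 0% of all genes. The strongest was *Uqcrb*, at 1841, 1537 and 1361 counts in KO females, against 1253, 1259 and 1063 in WT females, with no overlap and a log2 difference of 0.40 ± 0.12 (SE, adjusted p = 0.348). KO female mouse 4 stood highest in it, and genes of 700 bases or less outside the set had a median of 0.24 in the same comparison. In females on low calcium 0 members were called, against 1.24% of all genes, with 3 higher and 8 lower at an unadjusted p under 0.05 and a median of −0.08. *Cox6a2* had 30.3 and 22.8 counts in these KO females, against 66.7, 42.7 and 61.8 in WT females (log2 difference −1.06, adjusted p = 0.0766), and DESeq2 called 1 member higher and 1 lower.

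In males the median of KO minus WT was −0.14 on the control diet, with 13 of 90 members above 0, and −0.01 on low calcium. On the control diet limma called 0 members, against 0.46% of all genes, with 0 higher and 10 lower at an unadjusted p under 0.05. On low calcium it called 0, against 0.00639%, with 2 higher and 0 lower. edgeR called 0 members in all 5 comparisons of the genotypes, and DESeq2 called 0 in all but that of females on low calcium. WT male mouse 24 on the control diet, whose members averaged 0.30 above the mean of all mice on the log2 scale, is in the control-diet comparison.

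**Figure D4:**
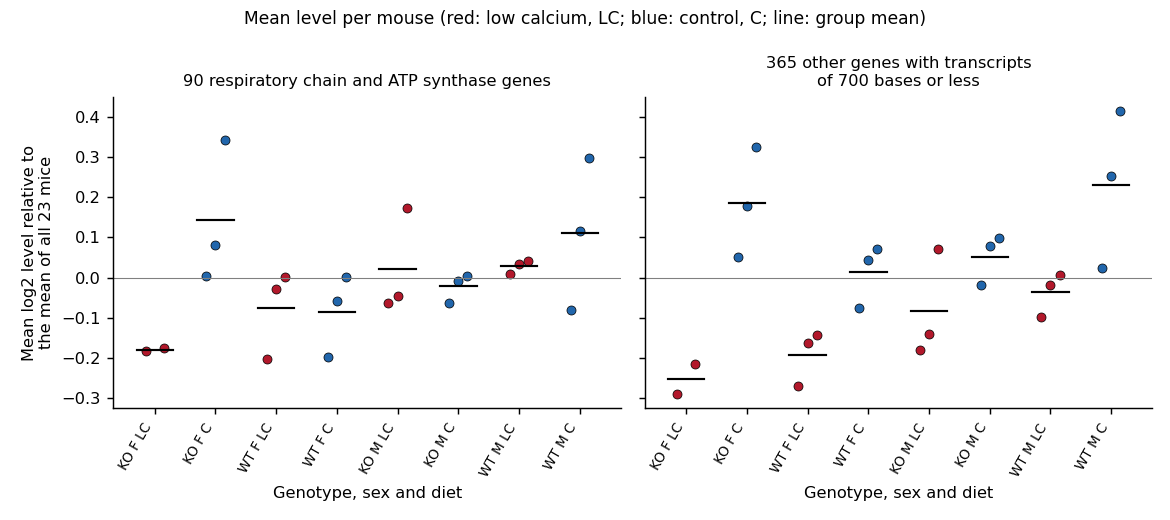
Mean over the members of the log2 normalized count per mouse, relative to the mean of all mice, beside that of 365 genes of 700 bases or less outside the set; points are mice and lines group means. Mouse 4 (KO female, control diet) at 0.34 and mouse 24 (WT male, control diet) at 0.30 stand highest, and the 2 KO females on low calcium stand at −0.18.

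Over the 4 pairs 22 members were lower in females than in males and 0 higher by limma, against 20% of all genes lower and 20.1% higher, while edgeR called 21 lower and 1 higher and DESeq2 22 lower and 1 higher. Thus the share of members lower, 22 of 90, was near that background. The median log2 difference was −0.10 over the members, and 14 of 90 were above 0. Lower were 6 of 15 members of ATP synthase, 6 of 16 of complex IV, 3 of 9 of complex III, 5 of 35 of complex I, *Ndufaf7* and *Cycs*, and 0 of 4 of complex II, with 2 of those lower at an unadjusted p under 0.05. With the length trend removed 9 were higher and 10 lower, against 21% and 22.8% of 14520 genes.

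*Cycs*, cytochrome c itself, which lies on chromosome 6 (50562563 to 50566538, minus strand, GRCm38), had lowest, median and highest counts of 946, 1191 and 1637 in the 11 females, against 1196, 1470.0 and 1635 in the 12 males. The ranges overlapped, KO female mouse 4 being the highest mouse of all, and the log2 difference was −0.26 ± 0.07 (SE, adjusted p = 0.00348). *Cyc1*, the cytochrome c1 of complex III that hands electrons to it, had 652, 748 and 895 counts in females, against 786, 859 and 1091 in males (log2 difference −0.23 ± 0.06 (SE), adjusted p = 0.0055). *Atp5f1*, a stalk subunit of ATP synthase, had 1570, 1729 and 2469 counts in females, against 1792, 2063 and 2333 in males (log2 difference −0.22 ± 0.05 (SE), adjusted p = 0.00352). *Cycs*, *Cyc1*, *Atp5f1*, *Atp5g1*, *Atp5d*, *Cox7b*, *Ndufa10* and *Ndufaf7* were called lower in females at an adjusted p under 0.05 in all 31 alternatives that kept this threshold, that without the length trend included. These calls are for the mean of the 4 pairs. In KO mice on the control diet *Cox7b* (0.31), *Atp5g1* (0.15), *Atp5d* (0.13), *Atp5f1* (0.03) and *Ndufa10* (0.02) were above 0 on the log2 scale. *Ndufaf7* (−0.34), *Cyc1* (−0.12) and *Cycs* (−0.06) were below 0 there. At the cut-offs of the study, which ask for a log2 change past 1, 0 members were called.

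Of the X-linked members, *Cox7b* was lower in females over the mean of the 4 pairs, with 863, 1179 and 1921 counts as lowest, median and highest, against 1123, 1346 and 1813 in males (log2 difference −0.24 ± 0.08 (SE), adjusted p = 0.0167). It was below 0 in 3 pairs and above 0 in KO mice on the control diet, at 0.31 ± 0.15 (SE, adjusted p = 0.207). *Ndufa1* and *Ndufb11* had log2 differences of −0.09 (adjusted p = 0.222) and −0.07 (adjusted p = 0.452). The number of members called between the sexes moved from 14 to 35 on leaving out single mice, being 35 without KO female mouse 4 on the control diet and 14 without KO female mouse 20 or WT female mouse 32 on the control diet or KO male mouse 29 on low calcium.

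Within single pairs, in WT mice on low calcium 8 were lower in females and 0 higher, against 14.8% of all genes lower, and *Ndufaf3*, an assembly factor of complex I, was among the largest at −0.48 on the log2 scale (adjusted p = 0.0196). *Cox6b2* fell by 0.55 on the log2 scale there (adjusted p = 0.0407). Calls went to 0 without WT female mouse 18 or WT male mouse 26, to 1 without WT male mouse 9 and to 3 without WT male mouse 8, all on low calcium, and to 5 without WT female mice 16 and 17. In KO mice on low calcium 4 were lower, against 1.5%, namely *Atp5g1* (log2 difference −0.73, adjusted p = 0.0224), *Cox7b* (−0.62, adjusted p = 0.0451), *Uqcrb* (−0.53, adjusted p = 0.0443) and *Atp5d* (−0.35, adjusted p = 0.0451), and 0 without KO female mouse 5 or 6 or KO male mouse 29 and 1 without KO male mouse 31. In KO mice on the control diet *Ndufaf7* alone was lower, against 2.14%, with 337, 336 and 292 counts in females and 412, 414 and 391 in males. The median of that pair was 0.16, with 76 of 90 members above 0 and 20 higher and 1 lower in females at an unadjusted p under 0.05, opposite in sign to the other 3 pairs. In WT mice on the control diet limma, edgeR and DESeq2 called 0, against 1.89% of all genes by limma. By limma 0 were higher and 27 lower at an unadjusted p under 0.05, with a median of −0.21. Limma with library quality weights called 32, in a fit that weighted WT female mouse 1 at 10.3. The other WT females on the control diet had weights of 0.915 and 0.795.

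**Figure D5:**
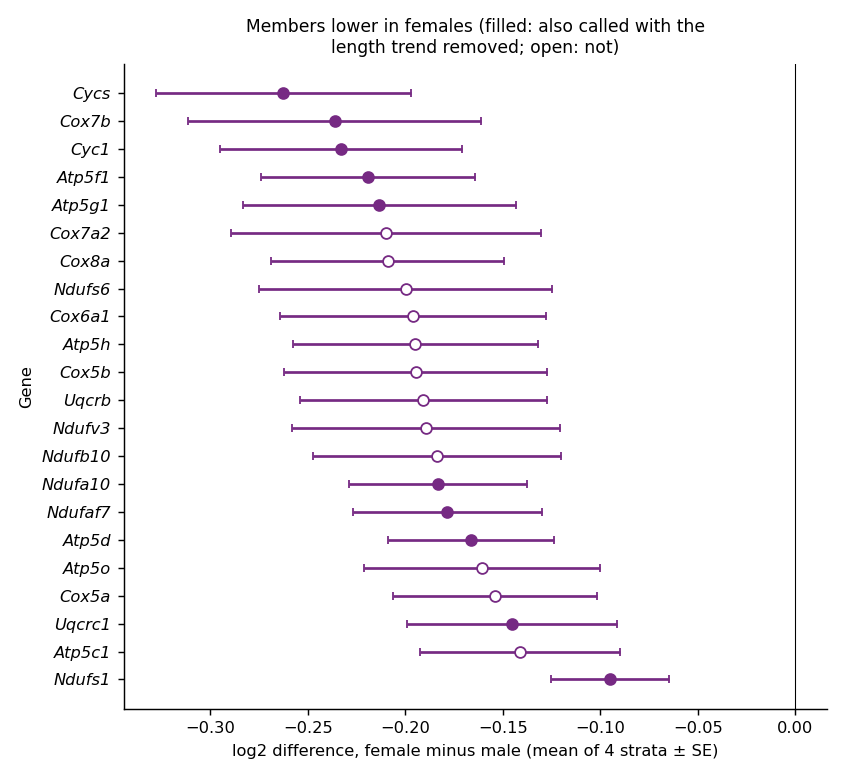
Log2 difference between females and males, averaged over the 4 pairs, for the 22 called members; bars are SE, and filled points were also called with the length trend removed. The members run from −0.26 (*Cycs*) to −0.10 (*Ndufs1*), all lower in females, and 10 are filled.

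Markers moved with sex too. Over the 4 pairs all 6 osteoclast and all 3 tested adipocyte markers were higher in females, as were 5 of 8 osteocyte markers. All 5 neutrophil, 3 of 4 red cell and 3 of 5 liver markers were lower. Of all genes tested, 20.1% were called higher in females and 20% lower. The liver markers did not go 1 way in all pairs. In WT mice on the control diet they summed to 16.2 to 51.4 in females, against 1114 to 13554 in males. In WT mice on low calcium they summed to 73.7 to 124 in females, against 0.985 to 2.61 in males. In KO mice the sexes overlapped on both diets. The part of the marked cells in the members' differences was not tested. Averaged over the 4 diet pairs 5 of 6 osteoclast markers were higher on low calcium. Lower were 3 of 5 neutrophil markers, all 5 liver markers and 1 of 6 muscle markers. Of all genes tested, 16% were called higher on low calcium and 15.4% lower. In WT females, however, the liver sum was higher on low calcium, 73.7 to 124 against 16.2 to 51.4, and in every other pair lower. The muscle sum was lower without overlap in WT males alone, 106 to 181 on low calcium against 491 to 673.

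Genes that feed or build the chain were counted on lists chosen with earlier results known. On low calcium over the 4 pairs these lists stand against the 16% of all genes that rose and the 15.4% that fell. Of 18 citric acid cycle genes, which supply the electrons, 6 rose and 0 fell by limma, with 7 higher and 1 lower at an unadjusted p under 0.05. *Dlst* and *Dld*, subunits of the 2-oxoglutarate dehydrogenase complex, had log2 differences of 0.18 each (adjusted p = 0.00102 and 0.00175). With quantile normalization 5 rose and 2 fell. Of 8 carriers and channels for adenine nucleotides and phosphate, 3 rose, among them *Slc25a4*, the ADP/ATP carrier of muscle and heart, at 0.26 (adjusted p = 0.00583). Of 37 assembly factors outside the symbols used, 1 rose and 2 fell, namely *Acad9* (0.15, adjusted p = 0.048), *Cox17*, a copper chaperone for complex IV (−0.33, adjusted p = 0.000112), and *Surf1* (−0.25, adjusted p = 0.00415). Of 14 regulators of mitochondrial biogenesis 4 rose and 2 fell, among them the coactivator *Ppargc1b* (0.36, adjusted p = 0.0103) and *Polg2*, the accessory subunit of the mitochondrial DNA polymerase (−0.70, adjusted p = 0.000318).

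In females against males, where 20% of all genes were lower, 5 of the 18 citric acid cycle genes were lower and 0 higher by limma, with 5 lower and 0 higher at an unadjusted p under 0.05, among them citrate synthase (*Cs*, log2 difference −0.19, adjusted p = 0.000204) and *Mdh2* (−0.23, adjusted p = 0.000662). *Slc25a4* was higher in females (0.36, adjusted p = 0.000317) while 4 other carriers were lower. In KO females on low calcium *Suclg1* fell (−0.57, adjusted p = 0.00807), as did *Cox17* (−0.54, adjusted p = 0.0103), and *Pprc1*, a coactivator of the same family as *Ppargc1b*, rose (0.48, adjusted p = 0.00807).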

How the data were processed

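The values analysed are read counts per gene, normalized (the signal unit), which the authors made before they were deposited. Per the authors, paired reads of total RNA were checked by FastQC 0.11.5, STAR 2.7.10a placed them on mm10, featureCounts counted those with a unique position, and each library was divided by its DESeq2 size factor. Which gene annotation was counted against is not given in the sources read. Whole reads were recovered from 100% of values within 0.01 reads. Mice of a group differed by 2.74 to 17.9 times counting noise, so spread between mice limited precision more than depth.

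A gene was tested when 2 or more libraries held 10 or more normalized counts (15638 genes). The fit used limma 3.58.1 (lmFit, eBayes with trend; R 4.3.3) on log2 counts plus 1, all 8 groups having their own mean and no covariate entering. Tests are two-sided. Adjustment followed Benjamini and Hochberg across every gene in the fit, calls being made below an adjusted p of 0.05, in 19 comparisons. Errors are standard errors of the fit unless given as SD.

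Other settings tried were quantile normalization, a pseudocount of 5, omission of the filter, DESeq2 1.42.0 and edgeR 4.0.16 (TMM) on recovered reads, quality weights per library, fits of only the 2 groups compared, and the cut-offs used in the study (p under 0.01 without adjustment, log2 change past 1). Each mouse was left out in turn, as were together mice 16 and 17, whose libraries mapped worst. Added after seeing the data was removal of a spline on transcript length (5 degrees of freedom) from each library. The fit was tested on simulated data. Transcript lengths (the median over coding transcripts of a gene) and positions came from GENCODE on GRCm38 and promoters from RefSeq. Named were anchor subunits, members with tissue forms, X-linked members, up to 5 called members in each direction per comparison and up to 3 called genes of each other list, not all of which are printed. The members and lists were chosen with earlier results of these data known. A few results are not reported here. Raw reads were not used here.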

Additional observations from a re-analysis of the deposited data

How the results depend on the processing

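Across all alternatives, 266 counts of called members equalled the main count or lay within 1.5 times of it, 51 became lower and 39 higher. Equal counts include 0 against 0 in comparisons without calls. Of the named members' results, 977 stayed and 263 lost their call, and 0 changed direction. The medians over the members moved by more than the spread between mice (0.12, SD on the log2 scale) in 7 of 337 cases. With the length trend removed the median changed sign for the mean of the 4 diet pairs, WT males by diet, WT mice on low calcium by sex and the mean of the genotypes. Leaving out mice changed its sign in WT females, WT males and KO males by diet, in 3 of the 5 genotype comparisons and in the diet change of WT females against WT males.

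Total members called under settings that changed a count are as follows. With the 2 groups alone there were 0 by diet in WT females, 2 in WT males, 4 in KO females and 0 in KO males, and by sex 5 in WT mice on low calcium and 0 in KO mice on either diet. With the length trend removed there were 12 by diet in WT females, 4 in WT males, 10 in KO females and 9 in KO males, and 1 between KO and WT females on low calcium. With library quality weights there were 2, 13 and 35 by diet in WT females, WT males and KO females. The largest weight was 10.3, for WT female mouse 1 on the control diet, whose group enters several of these comparisons. By genotype these weights gave 7 in females on the control diet, 3 in females on low calcium and 2 in males on the control diet, and by sex 32 in WT mice on the control diet, 2 in KO mice on the control diet and 11 in KO mice on low calcium. For differences between diet changes they gave 18 between KO and WT females, 2 between WT females and males and 10 between KO females and males. The thresholds of the study gave 1 by diet in KO females, 1 between KO and WT females on low calcium and 1 each for the diet change of KO against WT females and of KO females against KO males, and 0 by diet in WT females, KO males and the mean of 4, and by sex in WT mice on low calcium, KO mice on either diet and the mean of 4. DESeq2 gave 1 by diet in WT males, 2 between KO and WT females on low calcium, 3 by sex in KO mice on the control diet, 9 by sex in KO mice on low calcium, 4 for the diet change of KO against WT females and 8 for that of KO females against KO males. edgeR gave 1 by diet in WT males and 0 by sex in KO mice on the control diet. Quantile normalization gave 1 by diet in KO males, 1 between KO and WT females on low calcium and 1 by sex in KO mice on low calcium. Without the filter on low counts there were 4, 0 and 1 by sex in WT mice on low calcium, KO mice on the control diet and KO mice on low calcium.

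Leaving out single mice gave 0 to 28 calls by diet in KO females, 0 to 2 in WT females, 0 to 1 in WT males, 1 to 2 in KO males and 19 to 30 for the mean of 4. By genotype the range was 0 to 3 in females on low calcium and 0 to 1 in males on the control diet. By sex it was 0 to 4 in WT mice on the control diet, 0 to 8 in WT mice on low calcium, 0 to 2 in KO mice on the control diet, 0 to 5 in KO mice on low calcium and 14 to 35 for the mean of 4. For differences between diet changes it was 0 to 3 between KO and WT females and 0 to 1 between WT females and males. The cause of these changes was not tested. Where an arm was left with 1 mouse, that mouse was assumed to vary like the other groups. No paired analysis was possible because the groups share no mouse numbers. Depth limits the low members, and *Cox7b2*, *Cox8b* and *Cox8c* could not be tested.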
